A study of Mus musculus with 35 samples.

Results

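The regions described here are 665 autosomal ATAC-seq peaks, of 73975 autosomal peaks and 76018 in all, that were open mainly in pre-HSC II, the last population sampled on the path from endothelium to blood stem cells in the mouse embryo. They were chosen from the counts themselves. Levels are in CPM, a peak's count relative to the library's total count over all peaks, scaled to 1 common total as the unit's name implies. A region was taken if it had 3 or more reads in each of the 4 pre-HSC II libraries, a pre-HSC II mean of at least 15 CPM, and a mean at least 3 times that of each of the other 8 groups. The pre-HSC II levels and their excess over the other groups are therefore a description of the choice and carry no test.

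Hematopoietic stem cells (HSC) arise from hemogenic endothelium (HE), a specialised part of the arterial endothelium that switches from an endothelial to a blood program. Precursors called pre-HSC I and pre-HSC II follow in turn; the second has gained CD45, a phosphatase found on the surface of most white blood cells. Distal regulatory regions open in steps along such a path, and ATAC-seq reads this as the number of transposase insertions in a region.

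All 35 libraries came from mice of a line labelled 23GFP transgenic, which the labels used here describe no further, and each was made from 1500 sorted cells with 13 PCR cycles. Endothelial cells (EC) and HE each have 4 libraries on every embryonic day, E8.5, E9.5 or E10.5. The other groups were pro-HSC/HPC at E9.5, where HPC is hematopoietic progenitor cell, with 3 libraries, and pre-HSC I and pre-HSC II at E10.5 with 4 each. The tissue is labelled AGM+VU for E10.5 and PAS+VU for E8.5, and the E9.5 samples carry the E8.5 tissue label, so that day and tissue cannot be told apart between E9.5 and E10.5. No surface markers used in the sorting are given in the sources used here, and no transcripts were measured, so the cell labels could not be set against marker genes. The series calls its replicates biological, but the labels do not say whether the pools were of different litters, and p-values measure the spread between these pools. In a pool, more cells with an open region and a more open region per cell cannot be told apart.

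Some libraries stood apart. Pre-HSC II was the shallowest group, with total counts of 456770, 668956, 701221 and 1241216 in libraries 1 to 4, against 1004036 to 7415315 elsewhere. Pre-HSC I library 2 and library 3 differed from each other by less than the sampling noise (chi-square 0.461 per degree of freedom, where the next closest pair within a group had 2.59) and were counted as 1 sample in the tests and in each mean with an SD. The rule above takes the 4 pre-HSC I columns as deposited, and with the pair averaged it gave 711 regions, 663 of them among the 665. Group means given without an SD, and the orders and next-highest counts drawn from them, also take these 4 columns. The pair thus counts as 2 libraries in them.

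The regions are named by their position on mouse build mm9 as deposited. Genes at these positions were not assigned, because the gene table used here is of another build.

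The 665 regions were nearly closed in endothelium at every day and partly open in the 2 blood populations that precede pre-HSC II. The median over the regions of the E10.5 group means was 0.964 CPM in EC, 1.697 in HE, 4.28 in pre-HSC I and 23.1 in pre-HSC II. At E9.5 it was 0.889 in EC, 1.25 in HE and 4.57 in pro-HSC/HPC, and at E8.5 it was 1.59 in EC and 1.19 in HE. Over all autosomal peaks the same medians lay between 3.67 and 5.38 CPM. The regions thus sat below the median autosomal peak in EC and HE and close to it in pre-HSC I and pro-HSC/HPC. In E10.5 EC 51.7% of them were under 1 CPM, against 3.01% in pre-HSC I and 12.1% of all autosomal peaks in EC. The other 14482 autosomal peaks that met the same count and CPM minimum in pre-HSC II had medians between 27.9 and 32.3 CPM in all 9 groups.

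**Figure D1:**
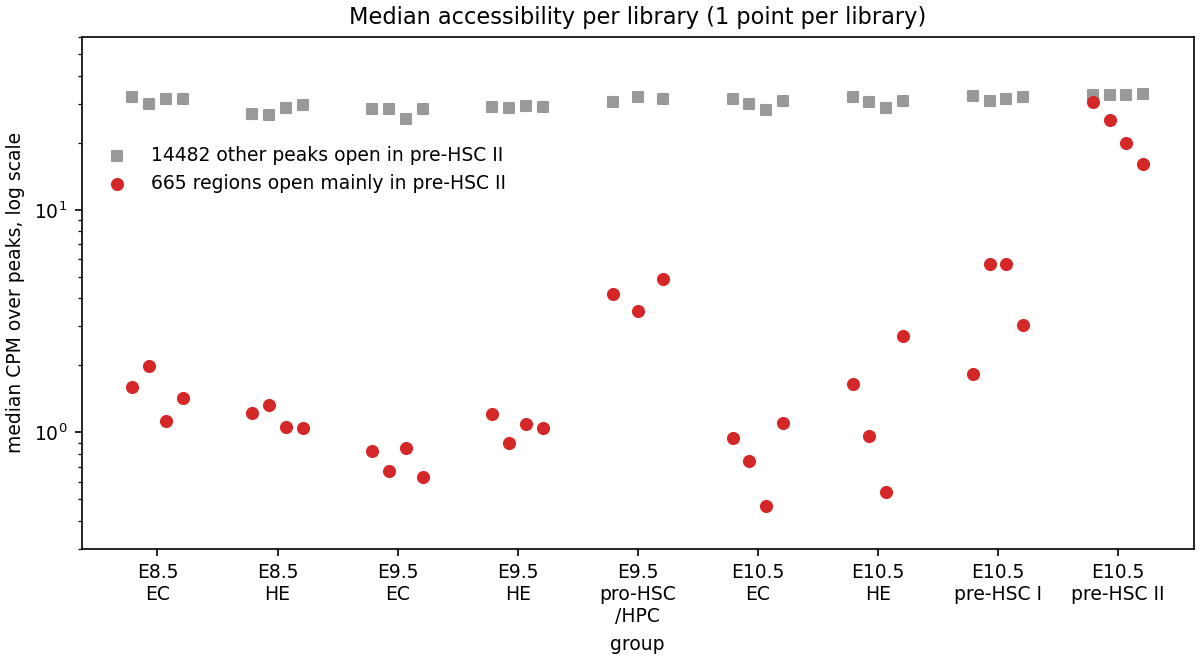
Median CPM per library on a log scale (1 point per library, groups in order of day and population) over the 665 regions (circles) and over the 14482 other peaks open in pre-HSC II (squares). The circles of EC and HE lie at 0.467 to 2.72 CPM, those of pro-HSC/HPC and pre-HSC I at 1.84 to 5.74, and those of pre-HSC II at 16.1 to 30.7, while the squares stay near 30.

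Library by library, the median over the regions was 30.7, 25.4, 19.97 and 16.1 CPM in pre-HSC II libraries 1 to 4. All 4 medians lay above those of every other library, a direction that the choice fixes, and the shallowest library was the highest and the deepest the lowest. Library 1 was the highest of the 4 at 337 regions and library 4 at 28. The part that depth plays in this order was not tested. With every library thinned to 456770 counts the rule gave 557 regions, 465 of them among the 665. In pre-HSC I the medians were 1.84, 5.71, 5.74 and 3.05 CPM, so libraries 2 and 3, the near-identical pair, were the most open and library 1 lay within the range of the EC and HE libraries. In E10.5 HE they were 1.65, 0.963, 0.542 and 2.72 CPM, with library 4 above pre-HSC I library 1. In E10.5 EC they were 0.945, 0.745, 0.467 and 1.10 CPM. The 3 pro-HSC/HPC libraries were alike, at 4.20, 3.53 and 4.87 CPM. The regions held 1.25% to 2.28% of the counts of a pre-HSC II library, 0.176% to 0.453% in pre-HSC I, 0.287% to 0.386% in pro-HSC/HPC and 0.0623% to 0.243% in the EC and HE libraries.

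The same rule with another group in the place of pre-HSC II gave 40 regions for E8.5 EC, 3 for E8.5 HE, 2 each for E10.5 HE and pro-HSC/HPC, 1 for E10.5 EC, and 0 for pre-HSC I, E9.5 EC and E9.5 HE. With all libraries thinned to equal depth it gave 48 for E8.5 EC, 12 for E8.5 HE, 7 for pro-HSC/HPC and 0 to 4 for each of the other groups, beside the 557 for pre-HSC II. With library sizes adjusted by TMM, the scaling used in the tests below, the rule gave 296 regions for pre-HSC II. It was not applied that way to the other groups. No test was made of these counts, and no population later than pre-HSC II was analysed here.

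A pre-HSC II level that had no part in the choice was read by leaving out 1 pre-HSC II library, applying the rule to the other 3, and taking the level in the library left out. Library 1 had a median of 19.7 CPM at the 653 regions chosen without it, where the 3 libraries used averaged 21.7 and the highest other group 5.28. Library 2 had 20.9 CPM at 627 regions. Libraries 3 and 4 fell further short of those used, with 15.7 CPM at 821 regions (23.0 in the 3 used) and 14.5 CPM at 878 (24.3 in the 3 used). The other group means still come from the rule, which capped them against the 3 libraries used, so the following shares and folds are partly fixed by the choice. The left-out library lay above the highest of the other group means at 86.5%, 94.6%, 89.4% and 92.5% of the regions for libraries 1 to 4. It reached 3 times that mean at 57.0%, 68.6%, 47.5% and 37.2%. The median fold over the next group, 4.21 in the regions as chosen, was 3.46, 3.96, 2.86 and 2.53 in the libraries left out.

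**Figure D2:**
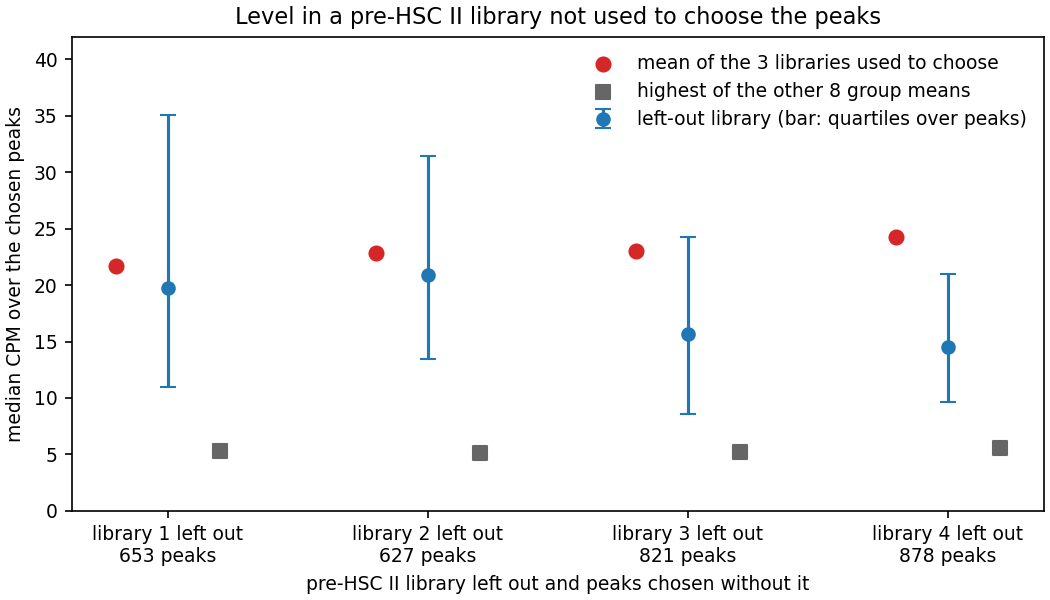
Median CPM over the regions chosen without 1 pre-HSC II library: the mean of the 3 libraries used, the library left out (bars are quartiles over regions) and the highest of the other 8 group means. The left-out medians, 14.5 to 20.9 CPM, lie below the 3 libraries used and above the other groups at about 5 CPM.

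Among the regions themselves the pre-HSC II mean ran from 15.001 to 155 CPM, with quartiles at 18.8 and 29.9. The fold over the next highest group ran from 3.00 to 19.5 with a median of 4.21. The 4 pre-HSC II libraries together gave 36 to 424 reads per region, with a median of 65. At 512 of the 665 regions the lowest pre-HSC II library was above the highest library of all other groups, 77.0% against 2.26% of the other peaks open in pre-HSC II and 1.47% of all autosomal peaks, values that the rule used. The coefficient of variation over the 4 libraries had a median of 0.469, against 0.344 in the 14482 other peaks, and the highest library was a median of 2.93 times the lowest.

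The region with the highest pre-HSC II mean was chr4:145174620-145176479, at 232, 145, 151 and 92.7 CPM in libraries 1 to 4. It was also open in the other groups, from 12.8 CPM in E9.5 EC to 49.4 in pro-HSC/HPC and 51.6 in E8.5 EC. It barely met the fold, so that it is the least selective of the strongly open regions. Next came chr3:133002177-133002948, at 70.1, 124, 57.0 and 74.1 CPM, with 19.5 CPM in pre-HSC I and 3.39 in E10.5 EC. The region chr3:134002098-134002716 had 140, 71.8, 62.7 and 45.1 CPM, and its next group was E8.5 HE at 26.1 CPM. The region chr8:80007391-80008062 stood at 83.2, 82.2, 59.9 and 49.1 CPM in pre-HSC II and at a mean of 17.8 CPM in pro-HSC/HPC. In E10.5 HE it was at 4.94, 1.60 and 0.813 CPM in libraries 1 to 3 and at 26.3 in library 4, and in E10.5 EC at 1.89 or below. At chr1:175817338-175817842 pre-HSC II had 72.2, 53.8, 54.2 and 40.3 CPM and pre-HSC I, the next group, had 4.29, 5.23, 4.31 and 2.44, a fold of 13.6. Of the 10 regions with the highest pre-HSC II mean, 4 had pro-HSC/HPC and 4 pre-HSC I as their next group.

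The largest fold over the next group, 19.5, was at chr8:106101004-106101346, where pre-HSC II had 35.03, 14.9, 5.70 and 5.64 CPM from 37 reads in all, with pre-HSC I at 0 in every library. The 2 deeper pre-HSC II libraries were low, and the mean of 15.3 CPM only just met the minimum. At chr13:107603203-107603987 the fold was 16.4, with 116, 34.4, 9.98 and 34.6 CPM. The region chr6:16913958-16914484 was steadier, at 30.7, 32.9, 19.97 and 14.5 CPM and a fold of 15.6 over pro-HSC/HPC. The 10 regions with the largest folds ran from 12.8 to 19.5.

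The regions differed in how alike the 4 libraries were. Among the regions with a mean of 25 CPM or more, the most even was chr1:97553764-97554127, at 30.7, 29.9, 28.5 and 25.8 CPM, with 4.90, 4.76, 4.79 and 2.44 CPM in pre-HSC I. In E10.5 HE library 1 it stood at 12.3 CPM, and in the other 3 HE libraries at 1.08 or below. The region chr3:136089564-136090022 had 28.5, 23.9, 29.9 and 29.0 CPM. At the other end chr14:103447870-103448636 stood at 86.7 CPM in library 2 and at 6.57, 8.56 and 16.1 in libraries 1, 3 and 4. The region chr10:125939270-125939973 stood at 105 CPM in library 1 and at 15.7 to 23.9 in the others. In these 2 regions 1 library carried most of the group mean.

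Some regions lay close to the fold of 3. Just inside it, chr1:30996603-30997876 had a pre-HSC II mean of 25.1 CPM and E8.5 EC at 8.35, and chr9:106095375-106095747 had 16.8 CPM with pro-HSC/HPC at 5.61. Just outside it, chr2:62298398-62299021 had 19.2 CPM with pro-HSC/HPC at 6.41, and chr16:65631913-65632626 had 18.4 CPM with pro-HSC/HPC at 6.14. The folds were 3.005 and 3.006 in the 2 just inside, and 2.9994 and 2.998 in the 2 just outside.

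The rule caps each of the other groups but does not set their order. Pre-HSC I means here count both libraries of the near-identical pair, which were its most open. The shares below were not redone with the pair averaged. Pro-HSC/HPC was the next highest group at 304 regions and pre-HSC I at 274, together 86.9%, where these 2 groups were the highest of the 8 at 39.4% of the 14482 other peaks and 32.0% of all autosomal peaks. E8.5 EC followed with 40 regions, E10.5 HE with 23 and E8.5 HE with 14, and the remaining 3 groups with 2 to 4 each. The group means rose from EC through HE to pre-HSC I at 60.8% of the regions, against 29.4% of the other peaks open in pre-HSC II and 23.1% of all autosomal peaks. From EC through HE to pro-HSC/HPC at E9.5 they rose at 63.6%, against 39.4% and 32.1%. Both orders held together at 276 regions, 41.5%, against 17.9% and 11.9%.

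Differences between the groups other than pre-HSC II were tested with edgeR's quasi-likelihood test in a fit of all groups, with p-values adjusted by Benjamini and Hochberg over 67108 peaks and called at 0.05. The count filter kept 664 of the 665 regions. Most of them passed it through pre-HSC II, the group they were chosen to be high in, so the counts below include many regions with few reads in the groups compared. In fits of only the groups compared, 75 to 317 of the regions passed, and a region high in 1 of those groups passed more easily. Counts over the regions that passed are a description in both kinds of fit. The rule also capped EC and HE, and their levels at the regions were low, which left little room for a fall from them to be called. A lack of lower calls in the comparisons below is therefore no evidence that none of the regions fell.

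Of the 664 tested, 143 rose in pre-HSC I, 21.5%, where 2.19% of all peaks tested did, 3.72% fell and 5.91% changed either way. The test called 0 of the regions lower, and so did DESeq2, with 1 lower at an unadjusted p under 0.05. The median log2 fold change was 1.80 over the regions and 0.05 over all peaks tested. At chr3:106592750-106593514 pre-HSC I libraries 1 to 4 stood at 12.2, 14.3, 15.8 and 10.4 CPM and EC libraries at 1.42, 1.30, 1.17 and 0. The groups did not overlap, and the log2 change was 3.57 ± 0.61 (standard error) with an edgeR adjusted p of 0.000118. In pre-HSC II the same region reached 103, 59.8, 65.6 and 42.7 CPM. At chr4:149940017-149940559 all EC libraries were at 0 and pre-HSC I stood at 1.22, 12.4, 12.9 and 8.53 CPM, at least 40.6-fold higher against 3 counts over the EC group (adjusted p = 0.000113). The region chr1:152011772-152012672 rose from 5.67, 1.12, 1.17 and 0.829 CPM in EC to 8.57, 22.8, 24.9 and 18.9 in pre-HSC I, a log2 change of 3.10 ± 0.59 (standard error) with an edgeR adjusted p of 0.000426. The count of 143 rested in part on the near-identical pair: without pre-HSC I libraries 2 and 3 it was 28, with a median of 1.16. It was 72 without EC library 3, 78 without EC library 2 and 251 with the pair kept apart. A fit of these 2 groups alone tested 94 of the regions and called 18 of them higher, 19.1% against 1.96% of all peaks in that fit, with a median of 1.15.

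Against E10.5 HE, pre-HSC I rose at 6 of the 664 regions, 0.904%, where 0.0656% of all peaks rose, 0.0134% fell and 0.079% changed either way, and the median log2 fold change was 1.30 against 0.01. The test and DESeq2 both called 0 lower, with 2 (edgeR) and 4 (DESeq2) lower at an unadjusted p under 0.05. At chr1:146622283-146622862 pre-HSC I had 6.12, 19.98, 20.1 and 7.92 CPM and HE 0, 0.642, 0 and 1.82, with a log2 change of 4.48 ± 0.82 (standard error) with an edgeR adjusted p of 0.00739. At chr1:177454914-177455363 all HE libraries were at 0, while pre-HSC I had 12.2, 9.99, 9.57 and 7.31 CPM, at least 29.7-fold higher (adjusted p = 0.00209). Without the pre-HSC I pair the median was 0.70, against -0.05 over all peaks. The count ran from 1 to 14 with 1 sample left out, lowest without HE library 3 or the pre-HSC I pair and highest without pre-HSC I library 1; it was 13 without HE library 4 and 25 without the shallow HE libraries 1 and 4. DESeq2 called 15, a fit of these 2 groups alone 0 of 75 regions and 0 of all 32943 peaks in it, and a fit with the pair kept apart 43.

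The earlier blood population showed the same direction. Of the 664 regions 251 rose in pro-HSC/HPC over E9.5 EC, 37.8%, where 5.05% of all peaks rose, 6.8% fell and 11.8% changed either way. The median log2 fold change was 2.174 over the regions and 0.13 over all peaks. The test and DESeq2 both called 0 lower, with 1 lower at an unadjusted p under 0.05. At chr1:152011772-152012672 the 3 pro-HSC/HPC libraries had 16.8, 16.8 and 26.8 CPM and the EC libraries 0.549, 1.01, 3.42 and 0.629, a log2 change of 4.11 ± 0.63 (standard error) with an edgeR adjusted p of 3.45e-06. At chr1:109422083-109422655 they had 6.30, 11.5 and 18.7 CPM against 1.10, 0, 0 and 0, a log2 change of 4.56 ± 0.77 (standard error) with an edgeR adjusted p of 1.72e-05. At chr8:16263793-16264454 all EC libraries were at 0 and pro-HSC/HPC stood at 4.72, 9.70 and 8.93 CPM, at least 40.9-fold higher (adjusted p = 2.27e-05). At chr1:84911569-84912164 EC had 2 reads in all and pro-HSC/HPC 70, a ratio of 84.2 with an exact 95% counting interval of 22.5 to 709. The count was 137 without EC library 2, 159 without pro-HSC/HPC library 1 and 162 without EC library 1. It was 156 without 3 E9.5 libraries (EC 3 and 4, HE 4) that were high on chromosome X. A fit of these 2 groups alone tested 317 of the regions and called 179 of them higher, 56.5% against 9.002% of all peaks in that fit.

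Over E9.5 HE, 63 of the 664 regions rose in pro-HSC/HPC, 9.49%, where 0.644% of all peaks rose, 1.1% fell and 1.74% changed either way, with a median log2 fold change of 1.62 against 0.02. The test and DESeq2 both called 0 lower, with 1 lower at an unadjusted p under 0.05. At chr13:106089527-106090379 the pro-HSC/HPC libraries had 9.45, 11.9 and 4.87 CPM and the HE libraries 0.809, 0.3001, 1.09 and 0, a log2 change of 3.92 ± 0.71 (standard error) with an edgeR adjusted p of 0.00137. At chr16:91354760-91355755 they had 11.8, 8.82 and 23.5 CPM against 0.539, 1.5003, 1.09 and 0, a log2 change of 3.95 ± 0.75 (standard error) with an edgeR adjusted p of 0.00175. Leaving out 1 library gave 18 (pro-HSC/HPC 3 or HE 2), 20 (pro-HSC/HPC 1), 26 (HE 1 or HE 4), 28 (pro-HSC/HPC 2) or 53 (HE 3). It was 23 without the same 3 libraries and 112 by DESeq2, and a fit of these 2 groups alone called 108 of 271, 39.9% against 3.35% of all peaks in that fit.

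The regions raised in pre-HSC I and in pro-HSC/HPC over the EC of their day were partly the same. Of the 143 and the 251, 106 were in both lists, 74.1% of the first and 42.2% of the second, and these comparisons have no library in common. Over all peaks tested, 968 were in both lists, 65.9% of the 1470 higher in pre-HSC I and 28.6% of the 3386 higher in pro-HSC/HPC. Together 288 of the 665 regions, 43.3%, were raised over endothelium in at least 1 of these populations. Of the regions that passed the count filter, 376 were in neither list. Of all peaks tested, 2.19% were higher in pre-HSC I and 5.05% in pro-HSC/HPC, each over the EC of its day. The share of all peaks in at least 1 of the lists is not given here. Levels of 1 to 5 CPM rest on few reads, and a region in neither list is not thereby shown to be closed in both.

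Between HE and EC few of these regions were called, and the balance of higher and lower calls moved with single libraries. At E10.5, 8 of the 664 were higher in HE, 1.20%, and 2 lower, 0.301%, where 0.717% and 1.57% of all peaks were called, 2.28% either way. The median log2 fold change of 0.45, against 0.01 over all peaks, moved with single libraries. It was 0.23 without EC library 3. Without HE library 4 it was 0.07 and 4 regions were called, 2 higher and 2 lower in HE. With both shallow HE libraries (1 and 4) left out it was -0.13 (-0.07 over all peaks) and 1 was called. At chr1:190909163-190909654 HE had 3.29, 1.28, 0 and 15.4 CPM with library 4 apart from the rest, against 2 reads in EC, a ratio of 21.1 with an exact 95% counting interval of 5.26 to 184. At chr5:8943826-8944492 HE had 3.29, 0.963, 2.71 and 0.908 CPM and EC 0 throughout, at least 10.1-fold higher (adjusted p = 0.0140 by edgeR). Of the 2 lower regions, chr1:177454914-177455363 was at 0 in HE and at 6.61, 1.12, 0 and 0.829 CPM in EC, at least 4.54-fold lower (adjusted p = 0.0254). The count of 10 was 6 without EC library 1 or HE library 1, 3 without EC library 2, 2 without EC library 3 and 19 by DESeq2. The 2 called without EC library 3 were lower in HE, and 0 were higher. A fit of these 2 groups alone called 0 of 91, where 0.186% of all peaks in that fit were higher and 0.107% lower.

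The regions were narrow. Their median width was 476 bp (quartiles 359 and 595), against 1247 bp in the 14482 other peaks open in pre-HSC II and 495 bp over all autosomal peaks. Of the 665, 8 were wider than 1000 bp, against 68.7% of those other peaks, and none exceeded 1859 bp. The sources used here do not give how peaks of different groups were merged. The regions also lay further from other peaks. The nearest other peak was a median of 6920 bp away, against 4428.5 bp for the other peaks open in pre-HSC II and 4447 bp for all autosomal peaks. Another peak lay within 5000 bp at 40.9% of the regions and at 52.7% of the other peaks.

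Chromosome 1 held more of the regions than its share of peaks. It carried 101 of the 665, 15.2%, against 6.97% of the other peaks open in pre-HSC II and 7.09% of all autosomal peaks. Of the peaks on chromosome 1 that met the pre-HSC II minimum, 9.10% were among the 665. On chromosome 14, the next in this measure, the share was 6.73%, and on chromosome 19 it was the lowest at 1.11%, with 4 regions. The share on chromosome 1 was 12.9%, 15.9%, 14.6% and 14.6% of the regions chosen without pre-HSC II library 1, 2, 3 or 4, 20% at a fold of 5 and 12.2% of the 1406 regions at a fold of 2. Of the counts of all other autosomal peaks, chromosome 1 held 7.46% ± 0.430 in pre-HSC II (SD, n = 4), the highest mean of the 9 groups. It held 8.03% in library 1 and 7.001% to 7.51% in the others. The share was 6.79% to 7.17% in the pre-HSC I libraries, up to 7.37% in 1 E10.5 HE library, and 6.70% ± 0.226 in E10.5 EC (SD, n = 4). A share of counts and a share of regions past a fold are unlike measures, and a link between them was not tested. The excess of regions on chromosome 1 was partly local. In 5-Mb bins, 13 regions lay at 145 to 150 Mb, 11 at 175 to 180 Mb and 9 at 105 to 110 Mb, together 33 of the 101, and without these bins chromosome 1 still held 10.8% of the regions. In the first of these bins 13 of the 29 peaks that met the pre-HSC II minimum were among the 665, 44.8%.

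**Figure D3:**
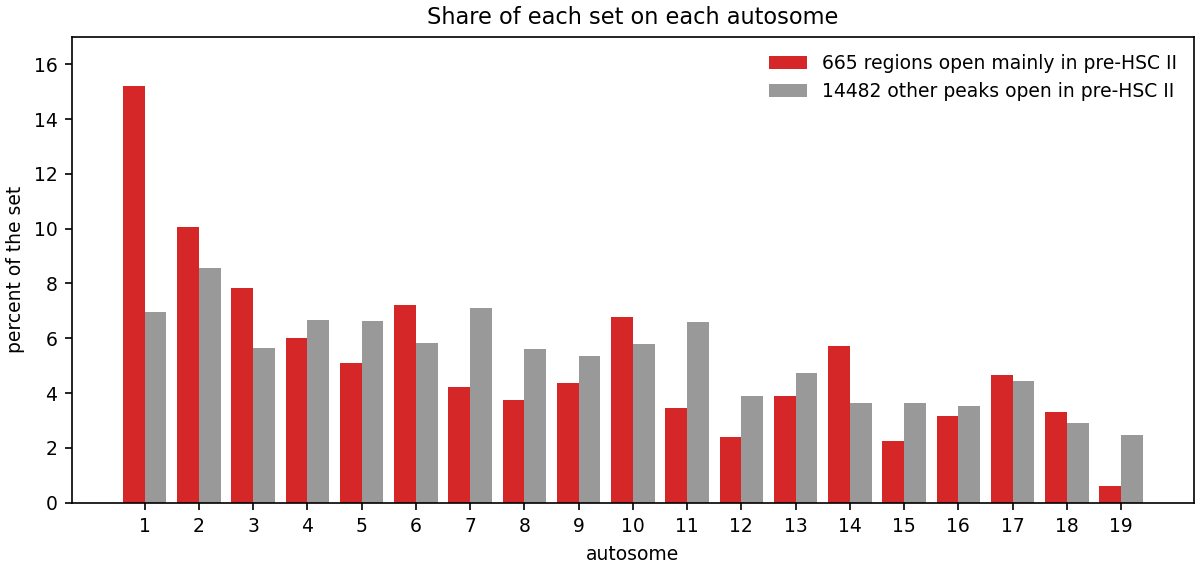
Percent of the 665 regions (first bar) and of the 14482 other peaks open in pre-HSC II (second bar) on each autosome. Chromosome 1 holds 15.2% of the regions and 6.97% of the other peaks, and chromosome 19 holds 0.602% and 2.46%.

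Most regions stood alone. With a gap of at most 50 kb between neighbours, 557 of the 665 had no other such region beside them, and 108 fell into 46 groups: 38 pairs, 5 groups of 3, 2 of 4 and 1 of 9. Within 50 kb of another such region lay 16.2% of the regions, 4.35% of the other peaks open in pre-HSC II and 4.00% of all autosomal peaks.

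The group of 9 spanned chr1:146032100-146155969, 124 kb, and took in 9 of the 12 peaks there. Pre-HSC II means ran from 16.8 to 38.1 CPM in these 9, and those of E10.5 EC from 0.0931 to 2.199. The region chr1:146049922-146050595 had 72.2, 25.4, 32.8 and 20.1 CPM in pre-HSC II, with a mean of 9.16 in pre-HSC I and 3.21 in pro-HSC/HPC. Its neighbour chr1:146090378-146091112 had 48.2, 49.3, 29.9 and 24.98 CPM. Directly beside that one, chr1:146091327-146092261 had 30.7, 31.4, 8.56 and 18.5 CPM and no group mean above 1.55 elsewhere. These 2 regions lie 215 bp apart and differ in their pre-HSC I means, at 8.86 and 1.19 CPM. The pair chr1:146154198-146154506 and chr1:146155117-146155969 had means of 22.1 and 27.8 CPM in pre-HSC II, 5.997 and 3.63 in pro-HSC/HPC and 2.69 and 1.11 in pre-HSC I. Just past the group, the peak chr1:146177358-146178037, picked after its values were seen, was open in pre-HSC I too, at 26.4 CPM against 48.6 in pre-HSC II, and so did not meet the fold.

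**Figure D4:**
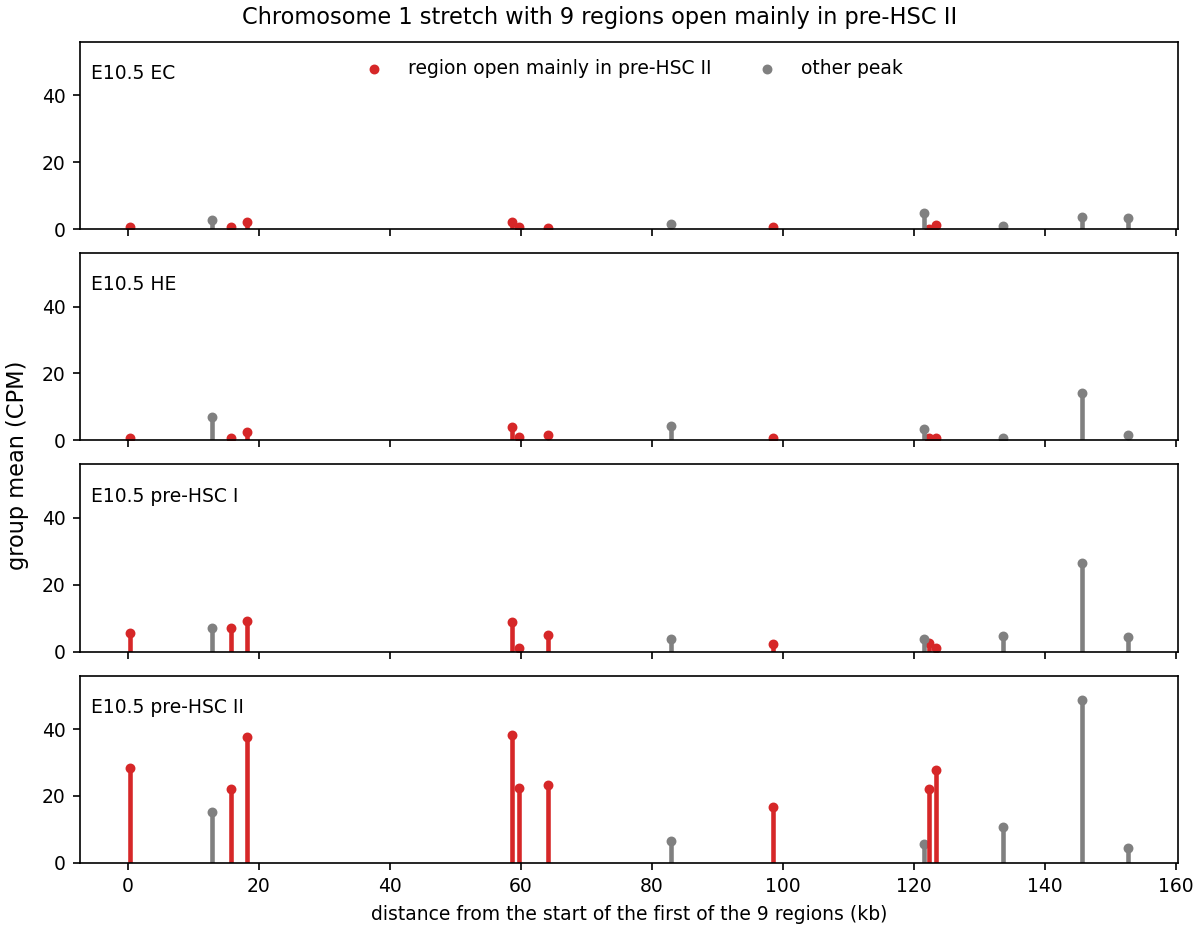
Group mean CPM of each peak in the chromosome 1 stretch with 9 regions, by distance in kb from the start of the first, in the 4 E10.5 groups. The 9 regions stand at 16.8 to 38.1 CPM in pre-HSC II and at 2.199 or below in EC, and the other peak 145 kb along rises from 3.67 in EC through 26.4 in pre-HSC I to 48.6 in pre-HSC II.

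On chromosome 10, 4 of the 5 peaks in chr10:51173621-51249276 were among the regions, with chr10:51173621-51174415 the highest at 83.2, 44.8, 28.5 and 26.6 CPM. A group of 3 within 9.05 kb, chr10:129751118-129760166, took all 3 peaks there and had pre-HSC II means of 20.7 to 47.1 CPM. On chromosome 13, chr13:117982337-118073321 held 4 regions among 11 peaks. In it chr13:117999918-118000667 had 54.7, 85.2, 64.2 and 33.8 CPM and chr13:118072901-118073321 had 39.4, 52.3, 45.6 and 36.3. The latter was also raised in pre-HSC I over EC (adjusted p = 0.00049 by edgeR), at 1.22, 18.1, 22.02 and 3.05 CPM against 2 reads in EC, so that the near-identical pair carried it. The group of 3 at chr9:112056420-112082912 had means of 15.2 to 26.8 CPM.

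Peaks beside the regions that were not among them were compared between pre-HSC II and pre-HSC I. The rule bears on this set too, since a neighbour with a large enough excess in pre-HSC II would itself be among the 665. Within 50 kb lay 2853 such peaks, of which 2550 were tested for pre-HSC II against pre-HSC I. The test called 31 of them higher in pre-HSC II, 1.22%, and 73 lower, 2.86%, where 0.852% and 4.29% of all peaks tested were called (5.15% either way, the 665 included), and 0.557% and 4.38% of all autosomal peaks outside them. Their median log2 fold change was 0.06 against -0.17 over all peaks, a difference of 0.23. With RLE size factors the median over all peaks was 0.11 and with total counts 0.10, and the difference was 0.22 in both. By distance the median was 0.25 within 5 kb, 0.03 at 5 to 20 kb, 0.01 at 20 to 50 kb, -0.03 at 50 to 200 kb, -0.11 at 200 to 1000 kb and -0.25 beyond. The quartiles of each class overlapped those of every other. Leaving out 1 sample gave 2 (pre-HSC I 1), 8 (pre-HSC II 2), 9 (pre-HSC I 4), 14 (pre-HSC II 1) or 53 (the pre-HSC I pair) in place of the 31. The balance of higher and lower calls turned with the scaling: RLE size factors gave 49 higher and 38 lower, total counts 48 and 40, DESeq2 91 and 49, and a fit of these 2 groups alone 22 and 13. In that last fit 1.80% of the 1221 neighbours tested were higher, against 1.85% of all peaks in it, and 1.06% were lower, against 1.31%. The larger share of higher calls among neighbours was thus absent there. For the other 3 settings the shares over all peaks are not given here. With the pair kept apart the counts were 47 and 103.

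**Figure D5:**
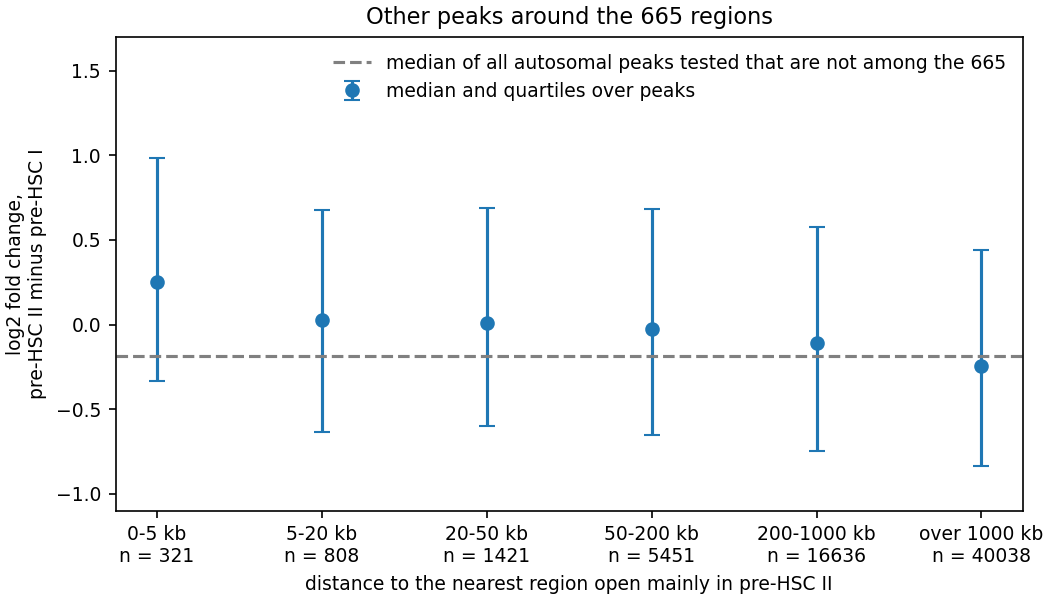
Log2 fold change of pre-HSC II over pre-HSC I at autosomal peaks outside the 665 regions, by distance to the nearest region (points are medians, bars quartiles over peaks, the dashed line is the median of all such peaks, -0.18). The median falls from 0.25 within 5 kb to -0.25 beyond 1000 kb, with wide overlap between the classes.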

How the data were processed

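The data were raw read counts in 76018 peaks for 35 libraries, deposited by the authors as 1 table on build mm9. Per the submitters' processing notes, DiffBind 1.14.6, MACS2 2.0.1, Bowtie 1.0.0, deepTools, Trim Galore 0.3.1, bedtools 2.17.0 and SAMtools were used; their roles, order and settings are not given in the sources used here. Between 54.1% and 78.2% of a library's counts were even within the range of counts examined, which was not all counts above 0. Reads may therefore have been counted in pairs. Counting intervals, which cover counting error only, may then be too narrow.

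CPM used each library's total over all peaks. Tests used edgeR 4.0.16 (R 4.3.3) with filterByExpr, TMM and a quasi-likelihood fit of all 9 groups in 34 samples (25 residual degrees of freedom), after pre-HSC I libraries 2 and 3 had been averaged. The procedure was tested on simulated data. The members and lists were chosen with earlier results of these data known. Regions named were the 10 with the highest mean, the 10 with the largest fold, the 5 nearest the fold of 3 on each side, the 5 with the lowest and the 5 with the highest variation among those of 25 CPM or more, those in the 5 fullest groups, and up to 5 per comparison and direction by adjusted p; some of these are given only by range. Regions on chromosome 18 (22) were counted but not named. A group at 0 was set at 3 counts over the group for a fold, and intervals are exact at 95%.

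Same-numbered E10.5 HE and EC libraries deviated together (correlations 0.12 to 0.29). The reported tests of E10.5 HE against EC had no term for such a pairing, so their p-values do not take it into account. In the other comparisons at least 1 correlation was under 0.1. Alternatives were RLE size factors, total counts, no filter, DESeq2 1.42.0, a replicate block, only the groups compared, each library left out, and other thresholds of the rule and distances.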

Additional observations from a re-analysis of the deposited data

Results flagged for a closer look

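Of 95 sets of 4 libraries tested at the named regions, 15 held a library far from the other 3, where chance gives about 1 in 20 for sets not picked by their values. These sets were partly picked so: some regions were named for a high variation in pre-HSC II, and in 6 sets the other 3 libraries were at 0, so the number is not set against chance. In pre-HSC II these were 120 CPM in 1 library at chr3:127058063-127058680 (next highest 51.3), 41.4 at chr12:104581691-104582156 (32.9), 86.7 at chr14:103447870-103448636 (16.1), 105 at chr10:125939270-125939973 (23.9) and 55.3 at chr10:51248732-51249276 (17.5).

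In the other groups 1 library stood at 5.67 CPM in E10.5 EC and 1 at 3.42 CPM in E9.5 EC at chr1:152011772-152012672. At chr9:79658263-79658837 E10.5 HE library 4 stood at 16.3 CPM, and the next at 2.47. At chr1:177454914-177455363 E10.5 EC library 1 stood at 6.61 CPM, and the next at 1.12.

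In the 6 sets with 3 libraries at 0, the library apart stood at 0.945 CPM in E10.5 EC at chr13:118072901-118073321, at 0.552 in E10.5 EC at chr1:190909163-190909654, and at 0.642 in E10.5 HE at chr2:69218378-69218697 and at chr8:129281881-129282189. In E9.5 EC it stood at 0.275 CPM at chr1:84911569-84912164 and at 1.10 at chr1:109422083-109422655.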

How the results depend on the processing

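Of 106 alternative values, 57 stayed within 1.5 times the reported count or within the spread between libraries, and 49 did not. The number of regions was 1406 at a fold of 2, 225 at a fold of 5, 272 at a mean of 25 CPM and 296 with TMM-adjusted library sizes, and 627 to 878 with 1 pre-HSC II library left out. The median fold over the next group, 4.21, was 3.26 with TMM-adjusted sizes and 3.88 to 4.54 with 1 library left out.

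With 1 library left out, the regions called numbered 28 to 143 for pre-HSC I against EC (78 and 72 without EC library 2 and 3), 1 to 14 against HE, 137 to 229 for pro-HSC/HPC against EC, 18 to 53 against HE, and 2 to 14 for E10.5 HE against EC; the neighbouring peaks called higher numbered 2 to 53. With only the groups compared in the fit, the counts were 18, 0, 179, 108 and 0 in that order, where 94, 75, 317, 271 and 91 regions were tested, and with DESeq2 they were 167, 15, 263, 112 and 19. For neighbouring peaks DESeq2 gave 91, RLE size factors 49, total counts 48, a distance of 10 kb 9 and a distance of 200 kb 73. Alternatives chosen after seeing the data kept the pre-HSC I pair apart (251 against EC, 43 against HE and 47 neighbours). Another such alternative left out E10.5 HE libraries 1 and 4 (25 for pre-HSC I against HE, 1 for HE against EC). The last left out E9.5 libraries EC 3, EC 4 and HE 4, which were high on chromosome X (156 for pro-HSC/HPC against EC, 23 against HE). Apart from counts with fewer regions tested, the cause of these moves was not tested.

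With the replicate number as a block, the counts were 145, 6, 243, 62, 10 and 34 beside 143, 6, 251, 63, 10 and 31 without it. The count for E10.5 HE against EC stayed at 10. The block was shared by all 9 groups and so did not model a pairing of HE with EC alone. No fit paired in that way was made, and the effect of such a pairing was not tested. Pre-HSC II depth limits what can be read at single regions, where a median of 65 reads in all stood behind a level.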
